A study of Mus musculus with 9 samples.

Results

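Retained-intron transcripts are annotated RNAs of a gene in which intron sequence that the coding transcripts remove is still present. The set described here holds 947 such transcripts from 793 genes. They are the entries that GENCODE M21, the annotation of the mouse genome build GRCm38, types as retained_intron and whose estimated counts summed to at least 500 over all 9 libraries, leaving out genes whose names begin with Srsf, Tra2, Hnrnp, Clk or Srpk. The tables held 15665 transcripts of this type, 12310 of them with at least 1 count, and 17 others that reached the minimum belonged to the left-out families. The members were therefore chosen by their summed level, and that level is a description here. Just below the minimum were Arf5-203 (498.7 summed counts), Tap1-202 (499.1) and Jak3-204 (499.5), and just above it Hif1an-202 (500.6), Usp14-203 (500.7) and Fbxo21-203 (500.9).

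The RNA came from total CD4+ T cells of C57BL/6 mouse spleen, purified so that the cells themselves stayed untouched. All cells were kept for 1 h with the vehicle DMSO or with 12.5 µM Compound 10, from a series titled for a small-molecule inhibitor of the NFAT:AP-1 complex on DNA. They were then left unstimulated or given 10 nM PMA and 1 µM ionomycin for 2 h. The groups were unstimulated vehicle (2 libraries), unstimulated compound 10 (2), stimulated vehicle (2) and stimulated compound 10 (3).

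During splicing, the spliceosome recognises the 5′ splice site at the start of an intron, nearly always the letters GT, and the 3′ splice site at its end, nearly always AG, and joins the exons on either side. A transcript that keeps an intron is usually held in the nucleus and degraded there, or is exported and removed by nonsense-mediated decay, because the intron brings in a stop codon. In T cells intron retention is known to change with activation, and a transcript can also end early inside an intron at a poly(A) site there. Counts of short fragments cannot tell a finished RNA that keeps an intron from a precursor not yet spliced.

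Total estimated counts ran from 10669821 to 21852830 per library, and the 947 transcripts held 0.952% to 1.58% of them. Ribosomal RNA took 1.78% to 26.3% of the counts. It was highest in the vehicle libraries numbered 2, with 26.3% unstimulated and 13.8% stimulated, and lowest in the compound 10 libraries numbered 2, with 3.11% and 1.78%. Summed levels of 7 CD4 T cell markers ran from 679 to 922 CPM (counts scaled to the size of each library) in the vehicle and from 1315 to 1445 in the compound 10 libraries. For all markers that size was the total count of the library, ribosomal RNA included. Summed levels of 4 natural killer cell markers, 3 of which had a mean of at least 1 CPM, were 3.28 to 5.34 in vehicle and 10.1 to 15.1 in compound 10. B cell markers gave 16.2 to 75.7 in all, and the part of other cell types and of ribosomal RNA in the results below was not tested. In such bulk samples fewer cells of a type and less RNA per cell cannot be told apart. No label ties the libraries of a group to different animals or cultures. The p-values therefore rest on the spread between these samples alone, which may be technical.

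By structure, 390 of the 947 transcripts (41.2%) kept at least 1 whole intron, 388 (41%) read past a 5′ splice site and ended inside the intron, 103 began inside an intron, 43 began and ended inside introns, and 23 were of other form. Of the 390 transcripts 211 kept exactly 1 annotated intron. Where a transcript kept several, the intron described here is that removed by most other transcripts of the gene, and most were kept by Nop56-212 (14, alternative forms of an intron counted apart). These introns had a median length of 560 bases, against 1002 bases for the 4506 other introns of the same genes. Those others can include further introns that the same transcripts keep, so this does not set kept against removed introns. For 387 transcripts the intron had GT and AG at its ends, and for 331 it lay between coding exons. The 388 transcripts that ended inside an intron reached a median of 1134 bases past the 5′ splice site, in introns with a median of 4282 bases. A transcript is counted with most confidence where it has bases that no other transcript of its gene has. The median was 901 such bases, but 97 transcripts had fewer than 50 and 70 had none. The levels of such transcripts rest largely on how kallisto, the quantification program, split shared fragments. Joins between exons, which can also mark a transcript, were not counted.

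The sequences below show short introns that were kept whole, chosen because the whole intron fits in a few lines and its transcript was either high or called in a comparison. Paf1-203, Pabpc1-204 and Rps20-201 keep only the intron shown, Mrpl52-203 keeps 2 annotated introns, Arhgef1-213 3 and Oaz1-206 8. They are read 5′ to 3′ from the members' own GENCODE M21 sequences, with the GT of the 5′ splice site and the AG of the 3′ splice site in capitals.
Oaz1-206, 78 bases, chr10:80828383-80828460, plus strand: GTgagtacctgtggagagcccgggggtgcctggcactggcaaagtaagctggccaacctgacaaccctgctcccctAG
Mrpl52-203, 79 bases, chr14:54427092-54427170, plus strand: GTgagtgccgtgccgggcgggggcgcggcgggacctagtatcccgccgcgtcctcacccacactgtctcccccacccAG
Paf1-203, 89 bases, chr7:28395540-28395628, plus strand: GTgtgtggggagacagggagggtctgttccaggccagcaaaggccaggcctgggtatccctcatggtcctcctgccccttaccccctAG
Arhgef1-213, 154 bases, chr7:24912156-24912309, plus strand: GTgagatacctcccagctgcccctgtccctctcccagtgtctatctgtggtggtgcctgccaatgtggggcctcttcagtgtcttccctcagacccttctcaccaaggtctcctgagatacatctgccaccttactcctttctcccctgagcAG
Pabpc1-204, 74 bases, chr15:36598128-36598201, minus strand: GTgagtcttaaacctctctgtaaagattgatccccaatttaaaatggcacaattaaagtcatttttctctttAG
Rps20-201, 192 bases, chr4:3835292-3835483, minus strand: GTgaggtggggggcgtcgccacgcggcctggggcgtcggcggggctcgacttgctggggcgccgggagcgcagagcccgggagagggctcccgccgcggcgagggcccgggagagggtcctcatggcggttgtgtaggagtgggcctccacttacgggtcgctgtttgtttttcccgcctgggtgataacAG

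For transcripts that ended inside a longer intron, the last 10 bases of the exon and the first 20 of the intron are shown, with the GT that was not used in capitals. They were chosen, after their values were seen, among members that rose under compound 10 in stimulated cells and are described below.
Txk-205, intron chr5:72736420-72752678, minus strand: ctgtcctcttGTgagtaagatgggctttac
Lck-207, intron chr4:129556748-129557033, minus strand: agcctgaaccGTgagcaggagacctccgtg
Fyb-203, intron chr15:6619751-6630071, plus strand: ttgacctgaaGTaagtaaaggatcatcttc
Rasgrp1-202, intron chr2:117294883-117298461, minus strand: acggatatctGTacgtagacaaaggggcaa
Fosl2-202, intron chr5:32136806-32146824, plus strand: cggccagcagGTacgtgcgggccggggtgc
Txk-205 read 4118 bases into the first of 14 introns, and Fosl2-202 read 2839 bases into the first of 3. Fyb-203 read 858 bases into intron 2 of 17, Rasgrp1-202 369 bases into intron 6 of 16, and Lck-207 171 bases into intron 5 of 12. All 5 introns lie between coding exons, and in each of these transcripts the bases read past the splice site are found in no other transcript of the gene.

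**Figure D1:**
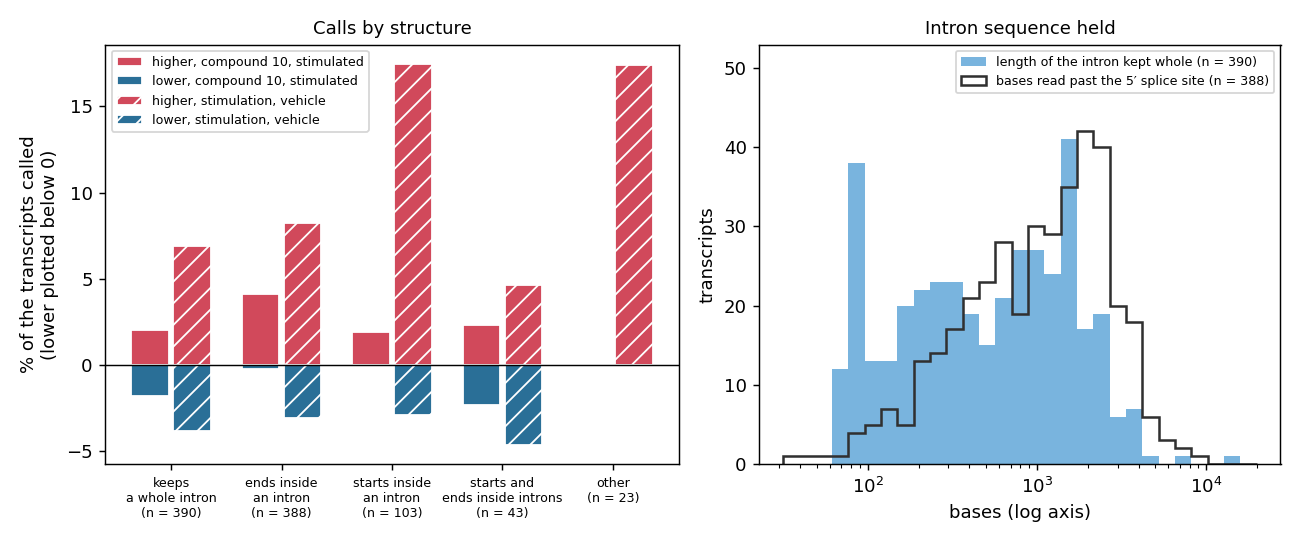
Left, the percent of transcripts of each structural class that were called higher (red, above 0) or lower (blue, below 0) at an adjusted p under 0.05, plain bars for compound 10 against vehicle in stimulated cells and hatched bars for stimulation in vehicle. Right, the number of transcripts by length of the intron kept whole (390 transcripts, filled) or by bases read past the 5′ splice site (388, outline) on a log axis of bases. The whole introns hold a group of short ones near 100 bases.

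Most of these transcripts were minor products of their genes. The share, the percent of the gene's estimated counts that fell on the transcript over all libraries, had a median of 14.6% (quartiles 6.19% and 28.7%). It was under 5% for 188 transcripts and 50% or more for 87. A share of counts is not a share of molecules, since a long transcript gives more fragments than a short transcript. The 44 transcripts of translation and ribosome genes had a median share of 1.45%, the 65 of T cell receptor, signalling and cytokine genes 8.71%, the 76 of RNA processing and decay genes 15.7% and the 24 of transcription factor genes 16.7%. Small nucleolar RNAs, which guide chemical changes on ribosomal RNA, are made from introns. Only 1 kept intron per transcript was counted, as described above, so the 4506 other introns can include further kept introns. A small nucleolar RNA gene lay in 7 of the 382 distinct introns so counted (1.83%) and in 35 of the 4506 others (0.777%). Of the members that kept a whole intron or ended inside an intron, 17 held such a gene inside an exon. Among these were Rack1-206, Hspa8-208 and Nop56-212 with 3 annotated small RNA genes each and Gas5-218 with 6. The 103 members that only began inside an intron and the 23 of other form were not searched.

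Rps20-201, from the gene of a small-subunit ribosomal protein, was the largest member with 133236 summed counts. Unstimulated cells had 678 and 968 CPM with vehicle and 894 and 691 with compound 10. Stimulated cells had 1172 and 1102 with vehicle and 1197, 811 and 1191 with compound 10. Its share stayed between 54.5% and 58.2% in the 9 libraries. The annotated sequence of Rps20-201 begins just before the intron shown above, and how kallisto split fragments shared with other transcripts was not tested. Ncl-202, from the nucleolin gene of ribosome assembly, followed with 85590 counts and shares of 79.8% to 86.7%, and it kept 2 annotated introns, among them intron 9 of 13 (492 bases, chr1:86352634-86353125). Pabpc1-204, from the gene of the cytoplasmic poly(A)-binding protein, had 55217 counts and differed widely between libraries of a group. Its level was 620 and 120 CPM in the stimulated vehicle libraries and 171 and 498 in unstimulated compound 10, so its group means cannot be told apart. Other large members were Hsp90aa1-206 of a heat shock chaperone (30439), H2-Q7-206 of a non-classical MHC gene (18944), Ythdf2-202 of a reader of methylated adenosine in mRNA (17306), Calr-204 of calreticulin (14268) and Rpl27a-201 of a ribosomal protein (13024). Rpl27a-201 has no base of its own, and H2-Q7 has near-identical neighbours, so their counts are uncertain.

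The spread between libraries of a group sets what can be seen. The highest library exceeded the lowest by a median factor of 1.28 in level in unstimulated vehicle, 1.26 in unstimulated compound 10, 1.39 in stimulated vehicle and 1.61 over the 3 stimulated compound 10 libraries. For the share these factors were 1.25, 1.21, 1.31 and 1.5. Among the 43 members with at least 5000 summed counts the shares differed less, by 1.14, 1.09, 1.16 and 1.23. For 53 members over 50% of the summed group means came from 1 group (24 from stimulated vehicle, 17 from stimulated compound 10, 8 from unstimulated vehicle and 4 from unstimulated compound 10), so these could enter the set through that group alone.

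Compound 10 was compared with vehicle in stimulated cells to see which of these transcripts change when the compound is present during activation. Among the 947 members 27 rose and 9 fell at an adjusted p under 0.05 (2.85% and 0.95%). Over all 30059 transcripts tested 2.19% rose and 2.52% fell, so the share of members that rose was near the background and the share that fell was below it. Among other transcripts with at least 500 counts, 5.09% of protein_coding entries rose and 6.73% fell, as did 2.96% and 4.43% of nonsense_mediated_decay and 5.24% and 1.9% of processed_transcript entries. By role, 6 of the 65 members of T cell receptor, signalling and cytokine genes rose (Lck-207, Fyb-203, Arhgef1-213, Rasgrp1-202, Slamf6-205 and Ifnar1-205) and 2 fell (Sla-203 and Nfkb1-208), with a median log2 change of 0.07 over the 65. Of the others that rose 14 are in no list, Cdkal1-207 and Txk-205 among them. By structure 16 of the 27 ended inside an intron, from 388 such members, and 8 kept a whole intron, from 390. Of the 9 that fell 7 kept a whole intron and 1 ended inside an intron. Of the 1182 coding transcripts of the same genes with at least 500 counts, 37 rose and 80 fell.

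These calls came from edgeR's quasi-likelihood test with Benjamini-Hochberg adjustment over all transcripts, and they were fragile. Leaving out any library took the count from 36 to between 1 (without stimulated vehicle 2) and 20 (without unstimulated vehicle 1). It was 19 without unstimulated vehicle 2, 11 without either unstimulated compound 10 library, 5 without stimulated vehicle 1, and 11, 17 and 6 without stimulated compound 10 libraries 1, 2 and 3. Without both vehicle libraries numbered 2, the richest in ribosomal RNA, no member was called, 164 having an unadjusted p under 0.05. Every one of the 36 kept its direction in the 17 other settings run, but Txk-205 alone was called without each library in turn.

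Txk-205 (chr5:72748561-72752770) comes from the gene of a Tec family tyrosine kinase of T cells. It measured 5.79 and 7.05 CPM in stimulated cells with vehicle and 28.5, 52.5 and 35.7 with compound 10, groups that do not overlap. In unstimulated cells it measured 14.6 and 14.0 with vehicle and 20.7 and 20.9 with compound 10. It rose by 2.60 on the log2 scale (SE 0.29, adjusted p = 0.00695) under compound 10 in stimulated cells, and the whole gene by 1.7. Its share was 18.1% and 28.6% in stimulated cells with vehicle and 35.9%, 50% and 40.2% with compound 10. The main coding transcript, Txk-201, rose by 1.2 (SE 0.18).

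Lck-207 (chr4:129556863-129558087), from the gene of the kinase that phosphorylates the T cell receptor, rose by 2.61 (SE 0.56, adjusted p = 0.0436). It measured 1.61 and 1.43 CPM in stimulated cells with vehicle and 6.5, 14.1 and 7.68 with compound 10. Its share stayed low, 0.699% and 0.844% against 2.06%, 3.28% and 2.30%, and the gene, which is also in the CD4 T cell marker list, rose by 0.86. Fyb-203, of an adaptor that links the receptor to integrins, measured 0.263 and 0.329 CPM in stimulated cells with vehicle and 1.24, 2.33 and 1.31 with compound 10. It rose by 2.40 (SE 0.46, adjusted p = 0.0312), from levels of under 10 fragments per library in vehicle to levels still below those of unstimulated cells. Cdkal1-207, of an enzyme that modifies transfer RNA, rose most, by 3.40 (SE 0.59, adjusted p = 0.0222), from 0.584 and 0.786 to 4.79, 10.6 and 6.70 CPM. Its share was 10.7% and 10.0% in stimulated cells with vehicle and 22.7%, 46.2% and 40.2% with compound 10.

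Other members that rose were chosen for mention after their values were seen. Rasgrp1-202 (chr2:117298093-117342925), from the gene of the Ras exchange factor that PMA-like lipids activate, measured 5.34 and 6.17 CPM in stimulated cells with vehicle and 21.3, 32.3 and 18.9 with compound 10, a rise of 2.07 (SE 0.32, adjusted p = 0.0151). Arhgef1-213, of a guanine nucleotide exchange factor, whose 154-base intron is shown above, rose by 2.27 (SE 0.31) and its gene by 1.59. Ssh2-205, of a cofilin phosphatase, rose by 2.20, Slamf6-205, of a costimulatory surface receptor, by 1.68, and Ifnar1-205, of the type I interferon receptor, by 1.02. Among mitochondrial genes Polg-216, of the DNA polymerase of mitochondria, measured 6.96 and 6.42 in stimulated cells with vehicle and 24.2, 26 and 17.2 with compound 10, a rise of 1.75 (SE 0.23, adjusted p = 0.0101). Mrpl52-203, of a mitochondrial ribosome protein, rose by 2.16 (SE 0.32), and its share was 11.3% and 14.1% against 25.2%, 39.2% and 31.9%. Of RNA-binding protein genes Rbm38-203 rose by 1.56 and Rbm39-211 by 1.64, but the latter has no base of its own.

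In most cases the gene moved the same way. The genes of 21 of the 27 members that rose also rose, 5 were not called, and that of Pisd fell. Pisd, named with Fosl2 and Brd8 after their values were seen, encodes the mitochondrial enzyme that makes phosphatidylethanolamine. Pisd-211, which keeps 4 annotated introns, among them the 241-base intron 6 of 7 (chr5:32738147-32738387), measured 4.95 and 4.45 CPM in stimulated cells with vehicle and 8.86, 10.5 and 8.96 with compound 10, a rise of 1.00 (SE 0.21, adjusted p = 0.0412). The whole gene fell by 0.52 (SE 0.15, adjusted p = 0.03) and its main coding transcript Pisd-201 fell by 1.35 (SE 0.17), from 39.3 and 38.4 to 16.2, 16.7 and 12.7. Its share was 10.2% and 8.56% in stimulated cells with vehicle and 26%, 30.2% and 24.9% with compound 10, and 19.9% to 31.4% in unstimulated cells.

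Fosl2 encodes the AP-1 subunit Fra-2. Fosl2-202 (chr5:32136173-32139644) measured 41.8 and 45.1 CPM in stimulated cells with vehicle and 79.9, 109 and 85.6 with compound 10, a rise of 1.07 (SE 0.21, adjusted p = 0.0315). The gene as a whole changed by 0.10 (SE 0.19, adjusted p = 0.752) and the main coding transcript Fosl2-201 by -0.58 (SE 0.18, adjusted p = 0.123). The share was 15.5% and 22.0% in stimulated cells with vehicle and 34.1%, 38.5% and 35.5% with compound 10, groups that do not overlap. Brd8-205, of a chromatin reader of acetylated histones, rose by 1.23 (SE 0.26) with a gene change of 0.05.

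Of the 9 members that fell, 8 belonged to genes that fell. Ubr1-203, of a ubiquitin ligase, fell by 1.59 (SE 0.34), Ccz1-203, of an endosome trafficking factor, by 1.48 (SE 0.30), and Elp5-203, of the Elongator complex that modifies transfer RNA, by 1.43 (SE 0.28). Elp5-203 has 2 bases of its own. Sla-203, of an adaptor that restrains receptor signalling, measured 13.2 and 12.5 CPM in stimulated cells with vehicle and 6.21, 4.2 and 4.04 with compound 10, a fall of 1.42 (SE 0.31, adjusted p = 0.0461). Ncl-202 measured 1051 and 1092 in stimulated cells with vehicle and 573, 651 and 581 with compound 10, which lay between the stimulated vehicle and the unstimulated libraries (336 to 397). It fell by 0.83 (SE 0.14), the gene fell by 0.84, and its shares overlapped between the groups.

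Chosen after their values were seen, Nfkb1-208, of the NF-kB subunit p105, fell by 0.99 (SE 0.19), Oaz1-206, of the antizyme that limits polyamines, by 0.88 (SE 0.15), Ppat-201, of purine synthesis, by 0.98, and Asb6-205 by 0.72. Oaz1-206, whose 78-base intron is shown above, measured 89.5 and 92.7 in stimulated cells with vehicle and 49.7, 46.7 and 52.5 with compound 10. Its share was 3.38% to 4.3% in all 9 libraries. The gene of Oaz1 fell by 0.83, and that of Nfkb1 by 1.44, more than Nfkb1-208.

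**Figure D2:**
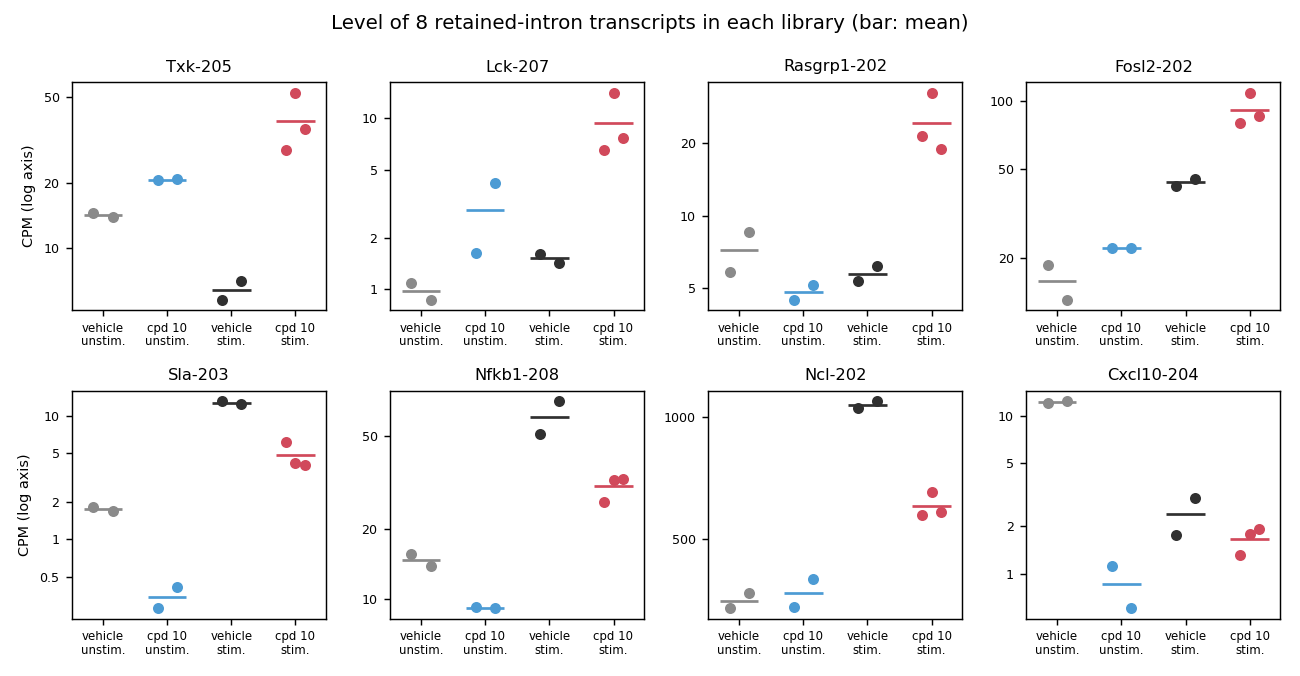
Levels of 8 retained-intron transcripts in CPM (log axis) in each of the 9 libraries, grouped by treatment, with a bar at the group mean. Txk-205, Lck-207, Rasgrp1-202 and Fosl2-202 lie higher in all 3 stimulated compound 10 libraries than in both stimulated vehicle libraries, and Sla-203, Nfkb1-208 and Ncl-202 lie lower.

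Compound 10 in unstimulated cells was compared with vehicle to see what the compound does without activation. Among the members 1 rose and 1 fell, against 0.25% and 0.21% of all transcripts tested, and 144 members had an unadjusted p under 0.05. Neither was called without either library of its own groups. Cxcl10-204, from the gene of an interferon-induced chemokine, keeps 3 annotated introns, among them the 538-base first of 3 (chr5:92348216-92348753). It measured 12.1 and 12.3 CPM in unstimulated vehicle and 1.12 and 0.608 in unstimulated compound 10, a fall of 3.82 (SE 0.49, adjusted p = 0.0328), and the gene fell by 3.92. Its share was 13.2% and 21.6% with vehicle and 19.4% and 15.8% with compound 10, groups that overlap. Jmjd1c-208, of a JmjC domain chromatin protein, rose from 4.2 and 3.57 to 20.8 and 19.6 CPM, a log2 change of 2.38 (SE 0.29, adjusted p = 0.0308), and its gene rose by 1.73. It has 2 bases of its own. In stimulated cells Jmjd1c-208 measured 5.43 and 8.38 with vehicle and 14.6, 18.8 and 14.3 with compound 10, a rise of 1.21.

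Stimulation with PMA and ionomycin in vehicle shows how these transcripts respond to T cell activation itself. It raised 83 members and lowered 32 (8.76% and 3.38%), where 5.39% and 3.02% of all transcripts tested rose and fell. Many of those are low, and among transcripts with at least 500 counts the share that rose was larger than among the members, 11.7% of protein_coding, 11.8% of nonsense_mediated_decay and 14.3% of processed_transcript entries, and 13.8% of the coding transcripts of the members' own genes. The shares that fell were 7.15%, 3.2%, 1.9% and 4.23%. The median log2 change over the 947 members was 0.21, and over all transcripts it was -0.01. Among other transcripts with at least 500 counts it was 0.00 for protein_coding, 0.17 for nonsense_mediated_decay and 0.40 for processed_transcript entries. It was 0.14 for the coding transcripts of the members' own genes and -0.07 for the 3963 retained_intron transcripts under 500 counts. The minimum of 500 counts was summed over libraries that include the stimulated ones, so a rise with stimulation could help a transcript reach it. Medians above the minimum are therefore not independent of that choice when set against those of all transcripts or of transcripts below it. The genes of 71 of the 83 rose as well and the other 12 were not called. Of the 32 that fell, 23 belonged to genes that fell, 8 to genes not called and 1, Cxcl10-204, to a gene that rose. By structure 18 of the 103 transcripts that begin inside an intron rose, 32 of the 388 that end inside an intron and 27 of the 390 that keep a whole intron. By role 12 of the 65 transcripts of T cell receptor, signalling and cytokine genes rose and 6 fell, and 7 of 30 of metabolism and mitochondria genes rose. The vehicle libraries of both states are also those of the comparisons with compound 10, so values are set side by side only. The count of 115 became 16 without both vehicle libraries numbered 2, 38 and 33 without unstimulated vehicle 1 or 2, and 49 and 53 without stimulated vehicle 1 or 2.

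Among those that rose, Mis18a-202, from a gene of the complex that marks centromeres, keeps 2 annotated introns, among them the last (intron 4 of 4, 675 bases, chr16:90719979-90720653). It measured 1.35 and 0.656 CPM in unstimulated vehicle and 37.9 and 30.6 in stimulated vehicle, a rise of 5.11 (SE 0.43, adjusted p = 0.00084), and the gene rose by 1.95. Its share was 4.49% and 2.01% before and 28.9% and 29.5% after stimulation, and 27.0% to 30.2% after stimulation with compound 10, and the test of the share did not pass. Cdh23-208, of a cadherin, rose by 4.71 (SE 0.50) together with its gene, which rose by 4.56.

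Slc25a3-204 and Naa30-204 had next to no counts before stimulation. Slc25a3-204, of the mitochondrial phosphate carrier, had 0 counts in unstimulated vehicle and 234.8 over both stimulated vehicle libraries, at least 62.1-fold higher when the empty group is set at a floor of 3 counts. Naa30-204, of an N-terminal acetyltransferase, had 0.5 and 391.7 counts, at least 104-fold higher with the same floor. The adjusted p was 0.012 and 0.0454, and such floors cover counting error only. For Naa30-204 the 391.7 counts of stimulated vehicle are most of the minimum of 500 summed counts. It could therefore enter the set largely through the group in which it was then called higher. Its log2 change ran from 7.05 to 10.41 with 1 library left out, and its call was lost in most of those fits. Slc25a3-204 also measured 1.96 and 5.40 CPM in unstimulated compound 10, where 68 bases of its own carry the count.

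Retained-intron transcripts of several genes of activated T cells rose, and these were chosen after their values were seen. The change of the whole gene is given for some of them only. Slamf1-202, of a costimulatory receptor, measured 2.72 and 2.93 CPM unstimulated and 40.1 and 48.1 stimulated, a rise of 3.95 (SE 0.36), and the gene rose by 4.60. Map3k8-203, of the kinase Tpl2, rose by 4.68 (SE 0.58) and its gene by 5.28. Vsir-205, of the checkpoint protein VISTA, rose by 4.18, Dusp2-202, of a MAP kinase phosphatase, by 3.01, Ccnd2-208, of cyclin D2, by 2.99, Sla-203 by 2.85, Irf8-207 by 2.33 and Zap70-204 by 1.60. Samhd1-208, of an enzyme that breaks down nucleotides, measured 7.56 and 8.35 unstimulated and 55.6 and 51.6 stimulated, a rise of 2.75 that was called in all 17 other settings, and its gene rose by 1.53. Nfkb1-208 and Nfkb1-204 rose by 2.03 and 2.18 beside a gene rise of 2.13, and Ptpn22-203 and Ptpn22-205 by 2.17 and 2.26 beside 2.83. Transcripts of the same gene are not independent of each other.

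A smaller number rose where the gene as a whole was not called. Paf1-203, of the complex that travels with RNA polymerase II, keeps the 89-base intron shown above. It measured 1.16 and 0.824 CPM unstimulated and 17.8 and 15.3 stimulated, a rise of 4.01 (SE 0.45, adjusted p = 0.00283), while the gene changed by 0.41. Its share was 0.674% and 0.461% before and 7.67% and 7.07% after stimulation. Rps6kb1-206, of the S6 kinase, ends 248 bases into intron 5 of 14. It rose from 0.934 and 0.933 to 9.99 and 8.43 CPM, by 3.28 (SE 0.35), with a gene change of 0.49 and shares of 2.34% and 2.44% against 18.5% and 16.3%. Sat1-205, of the enzyme that acetylates polyamines, rose by 2.57 (SE 0.40), Sdf4-206 by 2.51, Pfkp-206, of phosphofructokinase, by 2.78, Gnb1-206 by 1.93 and Ccnl2-205, of a cyclin tied to splicing, by 1.82. Their genes changed by -0.21, -0.01, 0.41, 0.13 and 0.17. Ccnl2-205 has no base of its own. Of these, the rule for naming chose Ccnl2-205 and the rest were picked out after their values had been seen.

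Fyb-203 fell furthest with stimulation, from 8.33 and 13.4 to 0.263 and 0.329 CPM in vehicle. The change was -5.12 (SE 0.52, adjusted p = 0.00178), against a gene fall of 1.38, and the share was 10.2% and 12.2% before and 0.742% and 0.920% after. Stimulated compound 10 libraries had shares of 1.39%, 2.27% and 1.53%, far below the 7.99% and 8.14% of unstimulated compound 10. Klf3-203, of a transcriptional repressor, fell by 2.90 (SE 0.28) and its gene by 1.87. Ms4a4b-204, of a membrane protein of T cells, fell by 2.71 (SE 0.67, adjusted p = 0.0496) while the gene changed by 0.05.

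Other members that fell, picked out after their values had been seen, were Ly6e-216 (by 2.42), Irf9-204 (by 1.83), Tap1-204 (by 1.83) and Ifnar1-205 (by 1.57). Cxcl10-204 measured 1.77 and 3.01 in stimulated vehicle against 12.1 and 12.3 before, a fall of 2.34 (SE 0.45, adjusted p = 0.0202), while its gene rose by 1.57. Its share was 13.2% and 21.6% before and 1.02% and 1.21% after stimulation, groups that do not overlap.

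Members that fell with stimulation and rose with compound 10 in stimulated cells included Polg-216 and Pisd-211, picked out after their values were seen. Polg-216 measured 17.5 and 15.8 CPM in unstimulated vehicle and fell by 1.31 (SE 0.24) to 6.96 and 6.42, and Pisd-211 fell by 1.05 (SE 0.23) from 9.31 and 10.3. The shares of Polg-216 were 46.2% and 37.4% unstimulated, 19.2% and 18.4% in stimulated cells with vehicle and 39.7%, 55.6% and 34.9% with compound 10. Both contrasts use the same stimulated vehicle libraries, so a high or low value there enters both.

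Camk2d, of a calcium-activated kinase and also picked out after its values were seen, had 3 members called higher with stimulation. Camk2d-208, Camk2d-215 and Camk2d-219 rose by 2.44, 2.34 and 2.54 in vehicle, and the gene by 1.37. In stimulated cells Camk2d-215 measured 11.5 and 21.5 CPM with vehicle and 4.13, 7.35 and 3.99 with compound 10 (log2 change -1.67, SE 0.40, adjusted p = 0.0624). Camk2d-219 measured 8.07 and 5 with vehicle and 12.5, 21.7 and 16.7 with compound 10 (1.37, SE 0.52, adjusted p = 0.214), and Camk2d-208 overlapped between the groups. Neither difference passed the test, and the difference between these members was not tested.

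**Figure D3:**
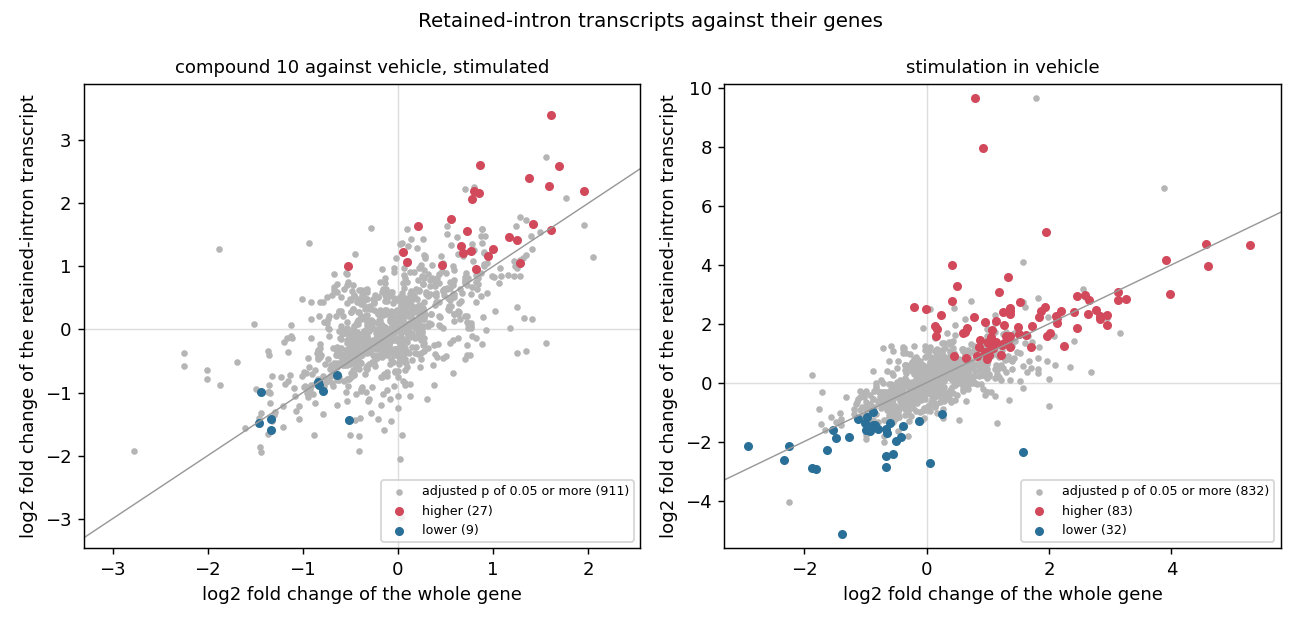
Log2 fold change of each of the 947 retained-intron transcripts (vertical axis) against that of its whole gene (horizontal axis), for compound 10 against vehicle in stimulated cells (left) and stimulation in vehicle (right), with transcripts called higher in red, called lower in blue and the line of equal change in grey. Most called transcripts lie on the same side of 0 as their gene, with Pisd-211 on the left (gene -0.52, transcript 1.00) and Cxcl10-204 on the right (gene 1.57, transcript -2.34) as exceptions.

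The share of the gene's counts was tested by itself, since it removes the level of the gene. Among the 935 members with a testable share none passed an adjusted p of 0.05 in any of 4 contrasts by edgeR's quasi-likelihood test on paired columns, and of all 22737 transcripts 0% passed in each. At an unadjusted p under 0.05 there were 101 members for compound 10 in stimulated cells (10.8%, against 6.92% of all transcripts). There were 92 in unstimulated cells (9.84%, against 6.3%) and 111 for stimulation in vehicle (11.9%, against 9.83%). The interaction of compound and stimulation had 31 (3.32%, against 4%). Other transcripts with at least 500 counts were protein_coding, nonsense_mediated_decay, processed_transcript and coding transcripts of the members' genes. For compound 10 with stimulation they gave 7.82%, 6.39%, 11.5% and 8.8%, of which only processed_transcript lay above the members. Without stimulation they gave 6.91%, 8.7%, 8.75% and 7.7%, all below the members. For stimulation in vehicle they gave 12.9%, 15.3%, 15.5% and 14%, all above the members. Another test of edgeR, diffSpliceDGE, called 0, 3, 9 and 0 members, and limma on log2 ratios of counts 0, 0, 4 and 0. The median SE of this test over all transcripts was 0.878 for compound 10 in stimulated cells, and 0.298 for the whole-gene test.

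The median change in share over the members was 0.17 in log2 odds for compound 10 in stimulated cells and 0.19 in unstimulated cells, against 0.01 and 0.03 over all transcripts. It was 0.03 against 0.02 for stimulation. Other transcripts with at least 500 counts that are not protein-coding also had medians above 0 under compound 10, 0.10 and 0.14 for nonsense_mediated_decay and 0.10 and 0.20 for processed_transcript entries. For coding transcripts of the same genes with at least 500 counts it was -0.08, -0.12 and -0.06. The 3827 retained_intron transcripts under 500 counts had medians of -0.03 and 0.02 under compound 10 and 0.03 for stimulation. Counts of a gene's transcripts add up to the gene, so a higher share of some is a lower share of others.

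Members with small p for a share, picked out after their values were seen, are given as values. For stimulation the adjusted p was 0.067 for Fyb-203 (log2 odds -3.83, SE 0.41) and for Rps6kb1-206 (3.08, SE 0.38), 0.0751 for Paf1-203, 0.0777 for Cxcl10-204 and 0.0805 for Mis18a-202. For compound 10 in stimulated cells it was 0.332 for Wsb2-203 (1.71, SE 0.32) and 0.339 for Pisd-211 (1.84, SE 0.36). In unstimulated cells it was 0.277 for Gbe1-202 of the glycogen branching enzyme, whose share was 10.3% and 7.08% with vehicle and 52.9% and 61.3% with compound 10. Rbm39-211, of a splicing factor gene, had shares of 5.93% and 3.95% against 15.4% and 17.1% in unstimulated cells and of 5.50% and 5.36% against 13.9%, 17.5% and 11.9% in stimulated cells. Irf8-207 had 1.62% and 1.3% against 4.45%, 4.40% and 5.03% in stimulated cells, where its gene fell by 2.25.

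**Figure D4:**
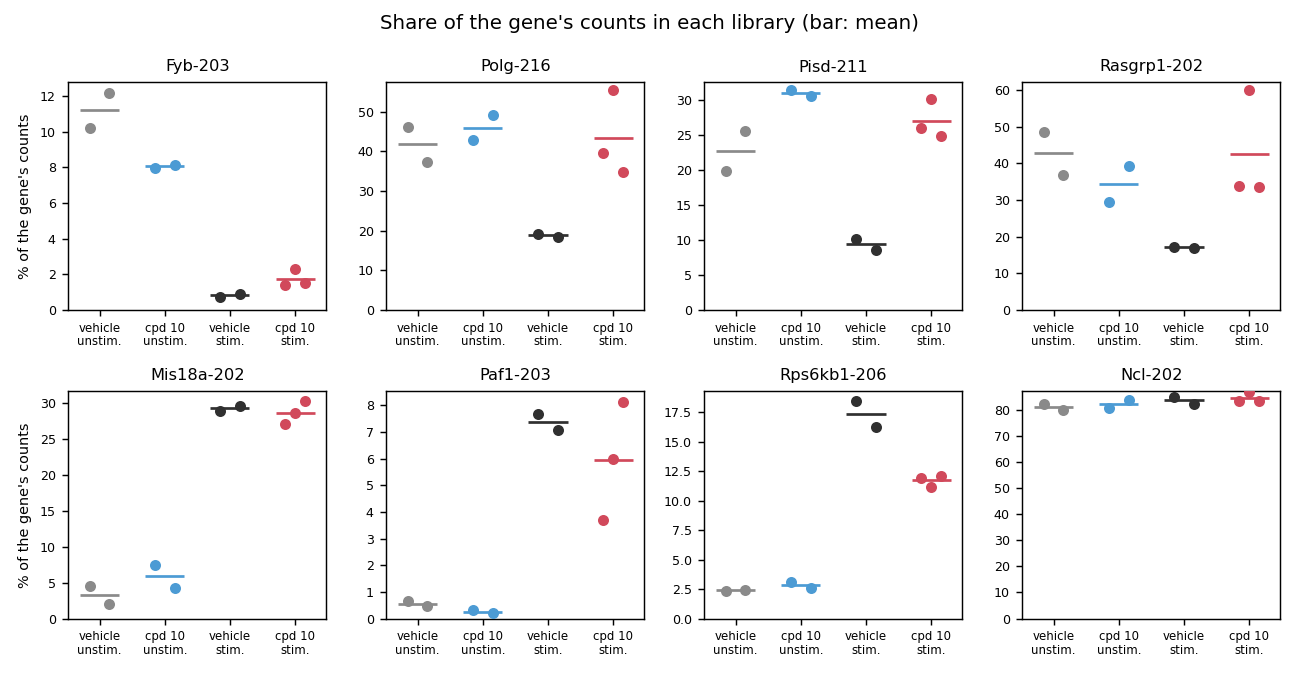
Share of the gene's estimated counts (percent, linear axis from 0) held by 8 retained-intron transcripts in each of the 9 libraries, with a bar at the group mean. The share of Fyb-203 is below 3% in all stimulated libraries, those of Polg-216, Pisd-211 and Rasgrp1-202 are lowest in stimulated vehicle, those of Mis18a-202, Paf1-203 and Rps6kb1-206 are higher in stimulated than in unstimulated libraries, and that of Ncl-202 stays at 79.8% to 86.7%.

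For the interaction, which asks whether compound 10 acts differently with stimulation, the smallest p for a share belonged to H2-Q7-205 (unadjusted p = 0.00331, adjusted p = 0.764), followed by Elp5-203, Triobp-202, Slc25a3-204, Cct6a-203 and Ccnl2-205. Elp5-203 had shares of 33.9% and 28.5% with vehicle and 44.5% and 44.5% with compound 10 in unstimulated cells, and of 22.8% and 28.8% against 11.9%, 15.6% and 13.0% in stimulated cells. Ccnl2-205 had 16% and 20.6% against 23.9% and 26% unstimulated, and 58.6% and 59.6% against 44.7%, 34.7% and 34.8% stimulated. Cct6a-203, of a chaperonin subunit, had 33.1% and 34.3% against 17.2% and 22.8%, and 19.9% and 23.3% against 25.3%, 37.1% and 29.2%. None passed the adjusted threshold.

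All 947 transcripts together held 7.55% and 7.41% of their genes' counts in unstimulated cells with vehicle and 7.28% and 9.22% with compound 10. After stimulation they held 6.46% and 7.63% with vehicle and 6.77%, 9.16% and 7.1% with compound 10. The groups overlap, and the highest values are those of the compound 10 libraries numbered 2. Compound 10 minus vehicle was 0.63 percentage points in stimulated cells (exact permutation test, 2-sided, p = 0.8, smallest possible 0.2) and 0.768 in unstimulated cells (exact permutation test, p = 1, smallest possible 0.333). Without the compound 10 library numbered 2 the differences were -0.112 and -0.201. Stimulated minus unstimulated vehicle was -0.437 (exact permutation test, p = 1), and 0.542 as a share of length-scaled TPM. These 2 compound 10 libraries also had the least ribosomal RNA, and its part was not tested.

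**Figure D5:**
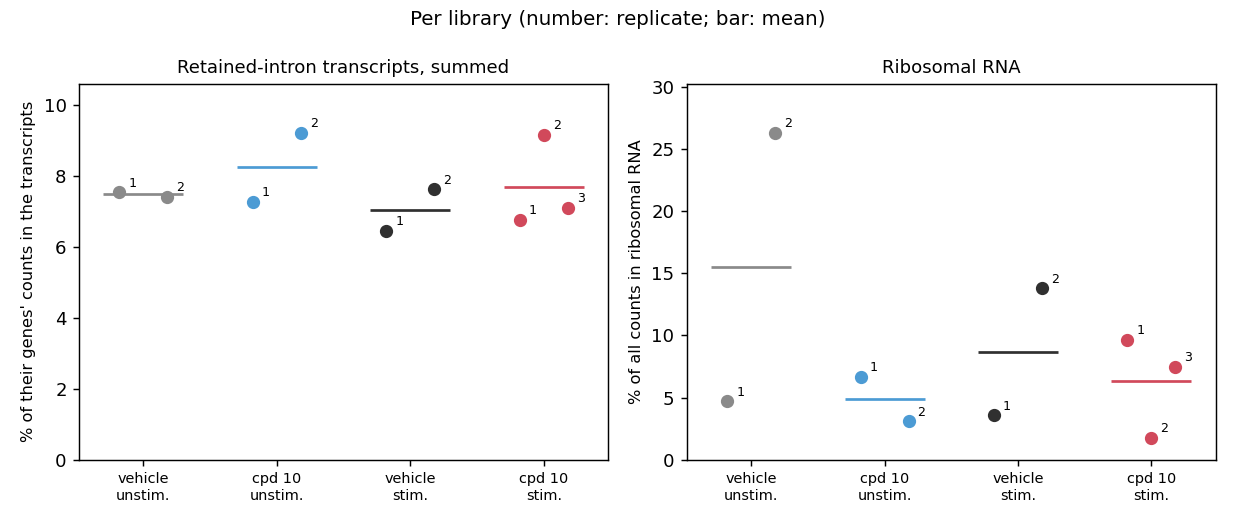
Left, percent of their genes' counts held by all 947 retained-intron transcripts in each library (numbers are replicates, bars group means, axis from 0). Right, percent of all counts in ribosomal RNA. The compound 10 libraries numbered 2 have the highest summed percent (9.22% and 9.16%) and the least ribosomal RNA (3.11% and 1.78%).

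The machinery that removes introns and clears unspliced RNA was read from lists of genes at the level of whole genes. Under compound 10 in stimulated cells 26 of 45 major spliceosome genes fell and 1 rose, with a median log2 change of -0.63, against 11.4% of all 14011 genes that fell and 11.7% that rose and a median of 0.00. The largest falls among those named by the smallest p were in Crnkl1 (-1.43, SE 0.16) and Prpf3 (-1.36, SE 0.17), which belong to the catalytic and the tri-snRNP stages, and in the helicase Dhx8 (-1.25, SE 0.16). Of 38 nuclear RNA decay and export genes 16 fell and 0 rose (median -0.49), among them Chtop, Mtrex and Thoc1 (-1.45, -1.31 and -1.11). Of 12 minor spliceosome genes Armc7 rose (0.65) and Rbm48 fell (-1.01), and the call of Armc7 was lost with any library left out. Of 19 nonsense-mediated decay genes 2 rose, among them Upf3a (0.78), and Magoh, Eif4a3 and Magohb fell (-0.62, -0.56 and -1.30), but none fell with upper-quartile scaling or without stimulated compound 10 library 3. With either stimulated vehicle library left out, 9 and 8 decay and export genes fell. Without both vehicle libraries numbered 2, an alternative chosen after the data were seen, 19 spliceosome and 6 decay and export genes fell.

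In unstimulated cells 4 spliceosome genes (Phf5a, Crnkl1, U2af1 and Snrpd1, log2 changes of -0.94, -0.86, -0.82 and -0.71) and 3 decay and export genes (Papolg, Chtop and Exosc9, -1.46, -0.81 and -0.86) fell with compound 10, and none of either list rose, where 2.91% of all genes fell and 4.45% rose. Leaving out any unstimulated library left at most 1 call in each list. With stimulation in vehicle 7 spliceosome genes rose, among them Snrpd1 and Dhx15 (1.54 and 0.95), and 3 fell, and 9 decay and export genes rose, among them Alyref (1.36), and 4 fell, where 14.4% of all genes rose and 13.8% fell. No spliceosome gene fell there without either vehicle library of either state, and 16 rose without stimulated compound 10 library 2. Without both vehicle libraries numbered 2, 1 spliceosome and 3 decay and export genes rose. Among the 793 genes of the members themselves 100 rose and 146 fell under compound 10 in stimulated cells. Of all genes tested 11.7% rose and 11.4% fell in that comparison. Of the 167 members of genes that fell there, 8 were called lower, and the median change was -0.58 for these transcripts and -0.82 for their genes. Of the 118 members of genes that rose, 21 were called higher, with medians of 0.85 and 0.84. These genes were picked by their own calls, in a test with a median SE of 0.298, against 0.608 for transcripts. Other transcripts of called genes were not counted this way, so these counts do not set the members apart from them.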

How the data were processed

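Per the submitters' processing notes, cutadapt trimmed the SMART-seq reads and kallisto quantified transcripts for mm10. Their versions, the index and the use of strand were not given in the sources used here, and overlapping antisense genes cannot be told apart. The deposited tables hold estimated counts per transcript, not normalized, and TPM, scaled by effective length, both as deposited by the authors. Of 109617 transcripts 108214 matched GENCODE M21 with the version ignored. Unmatched transcripts held 0.542% to 0.829% of counts.

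Estimated counts were rounded. Levels were tested on all transcripts passing filterByExpr in edgeR 4.0.16 (R 4.3.3; TMM, robust quasi-likelihood, all 9 libraries in 1 model by group, 2-sided, Benjamini-Hochberg, adjusted p under 0.05). CPM uses the TMM library sizes, except for the cell type markers, which were scaled to the total counts of each library. SE was taken as the absolute log2 change over the root of F. Shares were tested on the counts of the transcript and of the rest of its gene, with a term for each library, as a log2 odds ratio. Gene sums were tested like levels, and the summed percent by exact permutation in scipy 1.17.1. The tests of levels, gene sums and shares were checked on simulated data, and the permutation test was not. In the simulation, features of like level had the same spread. Introns were found by comparison with the other M21 transcripts of the gene.

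The members and lists were chosen with earlier results of these data known. Members were named by rule: per contrast the 4 furthest up and the 4 furthest down by level (and 8 by share) among those called, 1 per gene, without overlap of the groups; for the interaction the 6 with the smallest p; the 10 with the largest summed counts; and from each list 4 genes with the smallest p. Others are said to be chosen after their values were seen. Alternatives were other scalings, filters, tools (DESeq2 1.42.0, limma 3.58.1, diffSpliceDGE), each library left out, and the replicate number as a block. Some members that the rule would name are not reported here.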

Additional observations from a re-analysis of the deposited data

How the results depend on the processing

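Direction was kept in 17 settings by all members called (36 for compound 10 with stimulation, 2 for compound 10 without it and 115 for stimulation in vehicle), but the counts moved. Values below are in that order. Leaving out 1 library gave 1 to 20, 0 to 1 and 33 to 121 calls. Without both vehicle libraries numbered 2, the richest in ribosomal RNA, there were 0, 0 and 16, with the replicate number as a block 3, 0 and 61, and with the Wald test of DESeq2 114, 62 and 205. A stricter filter (mean of at least 50 counts) gave 74 and 14 calls for compound 10 and limma on log2(TPM + 1) 5 and 1. In unstimulated cells there were 19 calls without a filter. Members with at least 1000 summed counts gave 1 in unstimulated cells and 73 for stimulation. Shares gave 0 calls except for diffSpliceDGE (3 in unstimulated cells, 9 for stimulation), the stricter filter (23 for stimulation) and limma on counts (4 for stimulation). Whole genes gave 3234, 1031 and 3940 calls, with the block 2679, 878 and 3871, and with 1 library left out 1973 to 3167, 174 to 1457 and 2425 to 4347. The lowest came without stimulated vehicle 2, unstimulated compound 10 library 1 and unstimulated vehicle 2. The summed percent difference ran from -0.112 to 1.21, -0.201 to 1.74 and -1.02 to 0.146 with 1 library left out (0.146 without stimulated vehicle 1), and for stimulation was 0.542 as a share of TPM and 1.12 as a mean over genes. The cause of these changes was not tested. The labels do not say that a replicate number marks a shared source, and same-numbered libraries did not all deviate together, so the numbers were not taken to pair the samples. Their deviations from the group means correlated by -0.07 to 0.01 over transcripts and -0.10 to 0.18 over genes across treatments, and by 0.14 to 0.15 and 0.18 to 0.33 across stimulation within a treatment. Of the 947 members 517 have under 1000 counts over 9 libraries. Without the 10 largest members, an alternative chosen after seeing the data like that of the listed genes without the ribosomal RNA-rich libraries, the differences were 0.643, 0.758 and -0.78.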
